A study of Mus musculus with 4 samples.

Results

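The genes that move cholesterol out of the macrophage, together with the liver X receptors (LXRs) that switch many of them on, were followed in bone-marrow-derived macrophages grown beside MC38, a cell line of mouse colon cancer. The members were 9 genes taken by symbol from the deposited read counts: Nr1h3, Nr1h2, Abca1, Abcg1, Apoe, Mylip, Npc1, Npc2 and Soat1. All 9 were found among the 21878 genes listed, and all 9 were among the 12494 that passed the filter on low counts. RNA sequencing was done on 4 libraries, 2 labelled WT (wild type C57BL/6) and 2 labelled anti-Act1 (by the label, C57BL/6 with Act1 knocked down in macrophages). The comparison asks what the macrophages of these 2 labels transcribe differently. Act1 is an adaptor protein of interleukin-17 signalling. By the labels the mice were 8 weeks old and the coculture lasted 48 h, whereas the study's text also gives a wider age range and a shorter coculture. All 4 libraries came from macrophages that shared the medium with MC38 cells across a porous insert, so no library shows the genes without tumour cells. The promoter that drives the knockdown is not given in the sources used here. The libraries of a group are described as biological replicates.

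The LXRs, LXRα (Nr1h3) and LXRβ (Nr1h2), are nuclear receptors that sense cholesterol overload. They bind oxysterols and desmosterol, pair with a retinoid X receptor (RXR) and raise the transcription of genes that export cholesterol. Macrophages depend on this route because they engulf lipoproteins and dead cells and cannot limit that load by feedback on uptake alone. Cholesterol that enters is freed in the lysosome, leaves it through NPC2 and NPC1, is stored as ester by SOAT1, and is passed by ABCA1 and ABCG1 to acceptors such as apolipoprotein E.

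The depth was 64199075 counts in WT replicate 1, 75062945 in WT replicate 2, 61926229 in anti-Act1 replicate 1 and 55435063 in anti-Act1 replicate 2. CPM, the usual depth-scaled counts, here after TMM normalization, were used to compare 1 gene between libraries, and the deposited FPKM values (fragments scaled to gene length and library total) were used to compare levels between genes. A gene was called when the adjusted p of edgeR's quasi-likelihood test was under 0.05, with Benjamini-Hochberg adjustment over all 12494 genes. For a single gene in 2 libraries against 2, an exact permutation test cannot go below p = 0.333, so every p given here rests on this model across genes.

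The knockdown label was checked first. Act1 is encoded by Traf3ip2, whose WT levels were 6.98 and 7.54 CPM and whose anti-Act1 levels were 9.63 and 7.84 CPM, which is not lower (log2 fold change 0.27, SE 0.12, adjusted p of edgeR = 0.117). The study's text reports, from a separate measurement, strongly reduced Act1 expression in bone-marrow-derived macrophages of anti-Act1 mice. The Y-linked genes also separated the groups. Ddx3y was at 88.9 and 97.0 CPM in WT and had 0 counts in both anti-Act1 libraries, where a count of 0 allows up to 0.0486 and 0.0549 CPM (3 counts per library, counting error only). Uty (36.4 and 40.2 CPM in WT) and Kdm5d (34.8 and 35.8 CPM) likewise had 0 counts in both, and Eif2s3y (67.6 and 73.1 CPM) had 1 count and 0 counts. The label anti-Act1 and the absence of Y-linked transcripts therefore cannot be told apart in any comparison here. No member lies on X or Y. Throughout, anti-Act1 and WT name the libraries by their labels only.

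The cells carried the transcripts of macrophages. All 10 macrophage markers were above 1 CPM in every library, with a summed level of 26375 and 25422 CPM in WT and 26238 and 27052 CPM in anti-Act1, most of it from the lysozyme gene Lyz2. Of these, 5 were called, beside 20.7% of all genes tested, 3 of them lower in anti-Act1, Itgam, Mrc1 (log2 fold change −0.63) and Aif1, and 2 higher, among them Cd14. The 8 epithelial markers of the tumour cells summed to 0.464 and 0.369 CPM in WT and 0.389 and 0.128 CPM in anti-Act1, their most abundant gene was Cdh1, and Krt8, Krt18 and Cldn4 had 0 counts. Fibroblast markers summed to at most 2.19 CPM (most of it Pdgfrb, with Lum at 0), dendritic cell markers to at most 3.90 CPM (Clec9a the most abundant) and neutrophil markers to at most 7.37 CPM (S100a8 the most abundant). Of the 5 neutrophil markers tested, S100a8 was called higher in anti-Act1 (0.66) and S100a9 (−1.42) and Ngp (−2.21) lower, on the log2 scale, beside 10.9% of all genes called higher and 9.76% lower. T and B cell markers summed to 25.4 to 31.2 CPM, nearly all of it Cd4, which was called higher (log2 fold change 0.21), with the others near 0. What part the markers that differed have in the results was not tested.

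**Figure D1:**
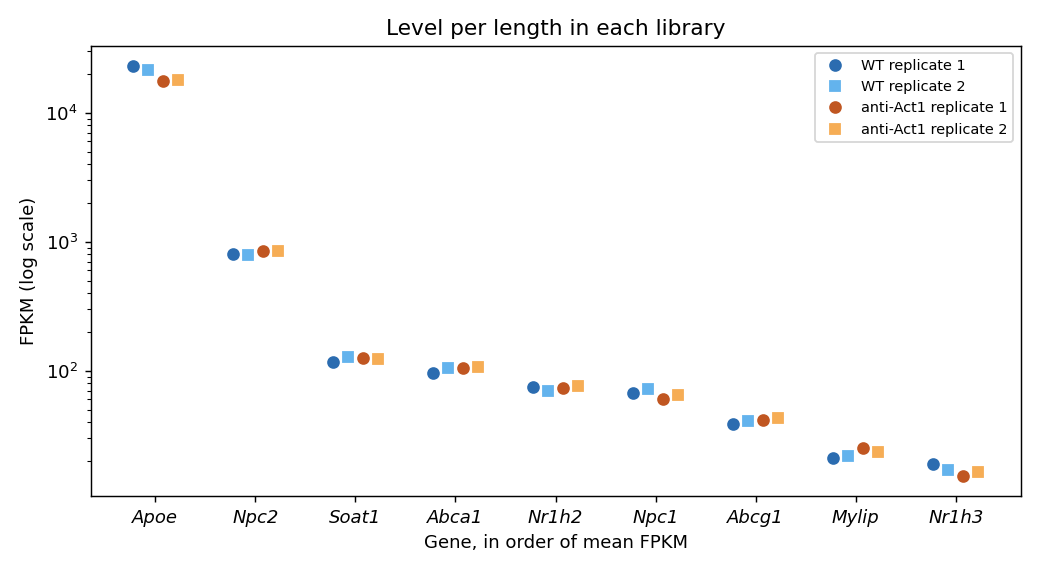
Level of each of the 9 genes in FPKM (log axis) in every library, with 1 point per library and genes ordered by their mean level. Apoe stands far above the others, at 17728 to 22881 FPKM, and Nr1h3 is the lowest, at 15.3 to 18.8 FPKM.

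Per length, the 9 genes spanned about 3 orders of magnitude. Apoe was the highest, at 22881 and 21635 FPKM in WT and 17728 and 18085 FPKM in anti-Act1, a mean level 24.4 times that of the next gene, Npc2. Npc2 (785 to 852 FPKM over the 4 libraries) was followed by Soat1 (118 to 129), Abca1 (96.3 to 107), Nr1h2 (69.3 to 76.2), Npc1 (59.9 to 71.7), Abcg1 (38.8 to 42.7), Mylip (21.1 to 24.97) and Nr1h3 (15.3 to 18.8). The ranges over libraries of neighbours in this order were separate, except for Nr1h2 and Npc1, of which Nr1h2 was the higher in 3 of 4 libraries. The order therefore had the storage enzyme Soat1 next to the exporter Abca1, and LXRβ well above LXRα.

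Between the groups, differences of the members were small. Mylip rose and Apoe fell in anti-Act1, so that 2 of 9 members (22.2%) were called, beside 20.7% of all genes tested. By direction this was 1 of 9 higher beside 10.9% of all genes, and 1 of 9 lower beside 9.76%. The CPM of the groups did not overlap in 7 of 9 members, 4 higher and 3 lower in anti-Act1, beside 57.1% of all genes tested. At an unadjusted p under 0.05 stood 6 of 9 members beside 31.4% of all genes. The median log2 fold change was 0.082 over the members and −0.0046 over all genes tested, and no member was further from 0 than Apoe, at −0.29. The share of called members was thus near the background in this fit. Without WT replicate 2 it was 4 of 9 beside 15.5% of all genes, without anti-Act1 replicate 1 it was 1 of 9 beside 13.4%, and by limma on log2(FPKM + 1) it was 0 of 9 beside 19.4%. In bulk RNA, fewer cells of a type and less RNA per cell cannot be told apart, here or in the values that follow. Without composition normalization 1 member was called higher and 2 lower, beside 20.1% of all genes called. By DESeq2 2 members were called higher and 1 lower, beside 12.8% called of the 15495 genes with a count. In that share a gene without an adjusted p counted as not called.

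**Figure D2:**
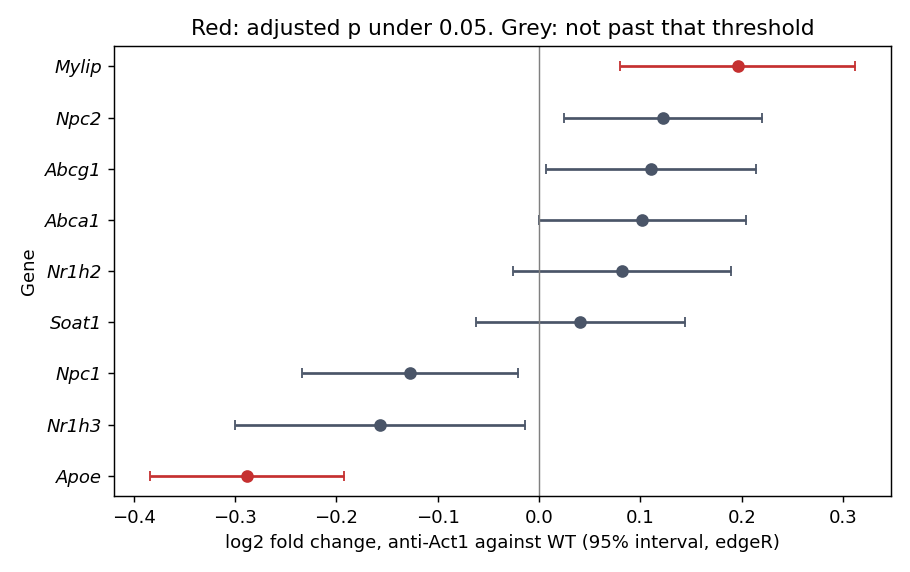
Log2 fold change of each gene, anti-Act1 against WT, with its 95% confidence interval from edgeR, in red for the called genes Apoe and Mylip and in grey for the others. The estimates run from −0.29 for Apoe to 0.20 for Mylip, and the intervals of Soat1, Nr1h2 and Abca1 span 0.

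Of the receptors, LXRβ was the more abundant in every library. Nr1h2 was at 148.2 and 137.5 CPM in WT and at 147.3 and 155.1 CPM in anti-Act1, and the groups overlapped (log2 fold change 0.082, SE 0.053, adjusted p by edgeR = 0.312). Nr1h3 was at 33.6 and 30.2 CPM in WT and at 27.6 and 29.6 CPM in anti-Act1. Both anti-Act1 libraries lay below both WT libraries, by a small margin, and the difference did not pass (log2 fold change −0.16, SE 0.071, 95% confidence interval −0.30 to −0.014, adjusted p by edgeR = 0.116). Leaving out WT replicate 2 gave a log2 fold change of −0.23, and leaving out WT replicate 1 gave −0.082. The FPKM ratio of Nr1h2 to Nr1h3 was 3.95 and 4.07 in WT and 4.78 and 4.68 in anti-Act1, so that the balance of the receptors differed between the groups without overlap; this ratio had no test of its own. Nr1h3 shares bases with the annotated genes Gm13783 and Gm23390, and the library kit did not mark the strand.

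The exporters of cholesterol, Abca1 and Abcg1, both lay slightly higher in anti-Act1 and neither passed. ABCA1 loads cholesterol and phospholipid onto lipid-poor apolipoproteins. Abca1 was at 981 and 1065 CPM in WT and at 1081 and 1115 CPM in anti-Act1, where the higher WT library came close to the lower anti-Act1 library (log2 fold change 0.10, SE 0.051, 95% confidence interval −0.00037 to 0.20, adjusted p by edgeR = 0.162). Leaving out WT replicate 2, the library with the higher WT level, gave 0.16, and leaving out WT replicate 1 gave 0.043. ABCG1 passes cholesterol to mature high-density lipoprotein. Abcg1 was at 224 and 233 CPM in WT and at 241 and 252 CPM in anti-Act1, again without overlap (0.11, SE 0.051, interval 0.0073 to 0.21, adjusted p = 0.127). The FPKM ratio of Abca1 to Abcg1 was 2.48 and 2.60 in WT and 2.55 and 2.51 in anti-Act1, and the groups overlapped in it.

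The promoter of Abca1 is shown because LXRs act there, together with those of Srebf1 and Fasn, LXR targets of fatty acid synthesis, as the windows of LXR target genes that held the same motif. The sequences are the 120 bases of the RefSeq promoter window (GRCm38.p6) that contain the match, 5′ to 3′ along the gene's strand, and the capitals mark the match. In Abca1 it lies 67 to 53 bases before the annotated start, in Srebf1 182 to 168 bases and in Fasn 225 to 211 bases. The window printed for Srebf1 is 1 of 3 annotated for that gene.
Abca1, chr4:53159896-53160015, minus strand: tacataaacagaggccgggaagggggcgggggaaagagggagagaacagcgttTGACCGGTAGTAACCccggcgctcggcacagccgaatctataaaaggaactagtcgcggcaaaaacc
Srebf1, chr11:60210544-60210663, minus strand: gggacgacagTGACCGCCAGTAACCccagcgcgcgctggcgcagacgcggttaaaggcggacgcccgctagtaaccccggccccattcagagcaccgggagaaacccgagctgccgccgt
Fasn, chr11:120824663-120824782, minus strand: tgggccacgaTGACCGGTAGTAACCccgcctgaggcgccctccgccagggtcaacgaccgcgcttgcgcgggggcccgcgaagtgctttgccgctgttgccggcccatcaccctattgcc

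The capitals are the reverse complement of the motif GGTTANNNNNGGTCA, which was searched on both strands and chosen after the windows of Abca1 and Srebf1 had been seen. It occurred in the windows (250 bases before to 50 after the start) of 13 of 27025 genes, or 0.0481%, among them 1 of the 7 members with an entry and 2 of the 14 other LXR targets with one. The stricter motif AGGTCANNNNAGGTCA, a direct repeat spaced by 4 bases that shares the ending GGTCA, occurred in 4 genes (0.0148%) and in none of these members or targets. Of the 3 genes printed, Srebf1 was called higher in anti-Act1, and Abca1 and Fasn (20.3 and 21.5 CPM in WT, 20.2 and 23.1 CPM in anti-Act1, log2 fold change 0.051, SE 0.080, adjusted p by edgeR = 0.723) were not called. Of the 13 genes with the motif, 7 were tested and 2 were called, both higher, beside 20.7% called and 10.9% called higher over all genes tested: Srebf1, from whose window the motif was partly chosen, and Tmco4 (log2 fold change 0.29, SE 0.075, adjusted p by edgeR = 0.00355), a gene named after its values were seen. A match describes these letters and is not a measured binding site.

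Apoe, which encodes the apolipoprotein that macrophages secrete as a cholesterol acceptor, fell in anti-Act1. It was at 28692 and 27004 CPM in WT and at 22435 and 23170 CPM in anti-Act1, so that both anti-Act1 libraries lay well below both WT libraries. Expression fell by 18.1% (log2 fold change −0.29, SE 0.048, 95% confidence interval −0.38 to −0.19, adjusted p by edgeR = 5.83e-06). With means of 27848 ± 1194 CPM in WT and 22803 ± 520 CPM in anti-Act1 (SD, n = 2 each), the gap was several times the spread within either group. Apoe was the most counted gene in all 4 libraries. It took 2.89% (95% Wilson interval 2.883 to 2.892) and 2.73% (2.727 to 2.734) of all counts in WT and 2.24% (2.234 to 2.241) and 2.28% (2.278 to 2.286) in anti-Act1, where the intervals cover counting error only and are much narrower than the gap between replicates. By FPKM it was first in both WT libraries and second in both anti-Act1 libraries, behind Fth1, the ferritin heavy chain (19307 and 18719 FPKM in WT, 22467 and 24155 in anti-Act1). With Apoe included, all 9 members together took 3.39% and 3.24% of the counts in WT and 2.76% and 2.81% in anti-Act1. On log2(FPKM + 1), limma gave a similar size without passing (−0.31, adjusted p = 0.0685).

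**Figure D3:**
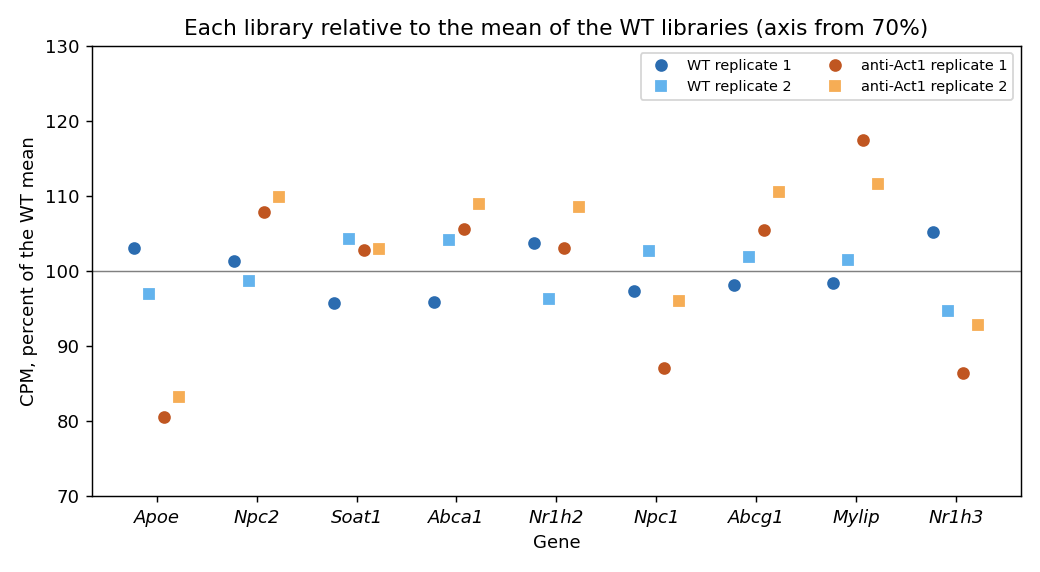
CPM of each gene in every library as a percent of its WT mean, with 1 point per library. Apoe in the anti-Act1 libraries lies at 80.6% and 83.2% of the WT mean, and Mylip is the member furthest above it.

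Mylip, also called Idol, was the member that rose. It encodes a ubiquitin ligase that LXRs induce and that sends lipoprotein receptors such as VLDLR and ApoER2 (Lrp8) to degradation. Its level was 62.6 and 64.5 CPM in WT and 74.7 and 70.9 CPM in anti-Act1, so the groups did not overlap. The rise was 14.6% (log2 fold change 0.20, SE 0.058, 95% confidence interval 0.080 to 0.31, adjusted p by edgeR = 0.0102), and the call was lost without anti-Act1 replicate 1 (0.16, adjusted p = 0.1995) and by limma on log2(FPKM + 1), at 0.16. The transcripts of these receptors were read too. Vldlr rose from 8.27 and 8.43 CPM to 18.7 and 18.8 CPM (log2 fold change 1.17, SE 0.094, adjusted p by edgeR = 5.02e-14), a level 124% higher, with both anti-Act1 libraries nearly equal. Lrp8 was low, at 1.35 and 1.30 CPM in WT and 1.99 and 1.68 CPM in anti-Act1 (0.47, SE 0.25, adjusted p = 0.191). In the counts Mylip, Vldlr and Lrp8 were thus all at higher values in anti-Act1, Lrp8 without passing.

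The promoters of both called members are shown since neither window held either motif. They are the 120 bases before the annotated start (RefSeq, GRCm38.p6), in lower case because there is no match to mark, and for Apoe they come from 1 of 3 annotated windows.
Apoe, chr7:19699189-19699308, minus strand: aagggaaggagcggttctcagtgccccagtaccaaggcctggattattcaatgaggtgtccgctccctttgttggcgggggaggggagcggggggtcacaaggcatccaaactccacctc
Mylip, chr13:45389622-45389741, plus strand: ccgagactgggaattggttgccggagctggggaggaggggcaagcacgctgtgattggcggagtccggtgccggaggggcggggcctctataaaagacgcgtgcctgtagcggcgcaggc
The absence of these letters concerns the windows alone.

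The lysosomal pair showed opposite signs. NPC2 is the soluble protein that takes free cholesterol from the lysosome's lumen, and NPC1 is the membrane protein that receives it. Npc2 was at 2602 and 2533 CPM in WT and at 2769 and 2821 CPM in anti-Act1, without overlap (log2 fold change 0.12, SE 0.049, 95% confidence interval 0.025 to 0.22, adjusted p by edgeR = 0.0671). Npc1 was at 344 and 363 CPM in WT and at 308 and 340 CPM in anti-Act1, also without overlap but with the nearest libraries almost level (log2 fold change −0.13, SE 0.053, interval −0.23 to −0.021, adjusted p = 0.0814). Neither passed in this fit. DESeq2 called Npc2 (adjusted p = 0.0128), while with the replicate number as a block in edgeR its adjusted p was 0.205. With 1 library left out, the log2 fold change of Npc1 ran from −0.20 to −0.056. The FPKM ratio of Npc2 to Npc1 was 11.88 and 10.95 in WT and 14.1 and 13.0 in anti-Act1, the groups being apart. Npc1 overlaps Rmc1 on the opposite strand, a gene listed under an older name with 4425 and 5040 counts in WT and 4904 and 4491 in anti-Act1, and reads of the shared bases cannot be assigned to either gene without strand.

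Soat1, which esterifies surplus cholesterol for storage in lipid droplets, was at 552 and 601 CPM in WT and at 592 and 594 CPM in anti-Act1. The anti-Act1 libraries lay between the WT libraries (log2 fold change 0.041, SE 0.051, 95% confidence interval −0.063 to 0.14, adjusted p by edgeR = 0.649). Its relative Soat2, the form of liver and intestine, was far lower and rose, from 1.56 and 1.77 CPM to 3.14 and 2.97 CPM (0.87, SE 0.21, adjusted p = 0.00128). The FPKM ratio of Soat1 to Soat2 was 134 and 129 in WT and 71.7 and 76.0 in anti-Act1, and Soat1 thus remained the main transcript. Of the 6 genes of ester turnover tested (8 listed), Soat2 was the only one called (16.7%, beside 20.7% of all genes), and the median log2 fold change was 0.025. Nceh1, a neutral cholesteryl ester hydrolase, was at 431 and 470 CPM in WT and 416 and 422 CPM in anti-Act1 (−0.10, SE 0.052, adjusted p = 0.157).

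Among the partners of the LXRs, the called genes were all lower. Of the 10 partners and coregulators tested (12 listed), 4 were called and all 4 were lower in anti-Act1, beside 9.76% of all genes called lower. Of the 11 genes of this list with a count, DESeq2 called 2, beside 12.8% of the 15495 genes with a count. Limma without a filter also called 2 of 11, beside 7.04% of all genes. All 10 had a log2 fold change below 0, from −0.29 to −0.026 with a median of −0.10, where 51.0% of all genes tested were below 0. The list was chosen with earlier results of these data known, and the shared sign was not tested. Rxra, an RXR that pairs with the LXRs, was at 154.6 and 150.9 CPM in WT and at 132.3 and 132.6 CPM in anti-Act1 (−0.21, SE 0.052, adjusted p by edgeR = 0.00259). The fall of 13.3% was clear of the spread within groups. Without anti-Act1 replicate 1 the call was lost at a similar log2 fold change, −0.20. Ncoa3, a coactivator of nuclear receptors, was at 155.3 and 157.8 CPM in WT and at 125.2 and 130.8 CPM in anti-Act1 (−0.29, SE 0.052, adjusted p = 2.62e-05). The coactivator Ncoa1 (−0.16, SE 0.057, adjusted p = 0.0359) and Gps2 (−0.19, SE 0.067, adjusted p = 0.0325), a subunit of the corepressor complex, were called with smaller margins and lost under several alternatives. Rxrb was at 59.4 and 58.3 CPM in WT and 54.96 and 60.62 CPM in anti-Act1 (−0.026, adjusted p = 0.816), and Rxrg had 0 counts in every library. Per length, the mean over the 4 libraries was 28.3 FPKM for Rxra and 23.4 FPKM for Rxrb.

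The other LXR targets went both ways. Of 18 tested (20 listed), 4 rose and 3 fell (38.9% called), beside 20.7% of all genes called, 10.9% higher and 9.76% lower. The median log2 fold change was 0.053. Without composition normalization 3 rose and 4 fell, beside 1105 higher and 1411 lower over all genes. By limma on log2(FPKM + 1) or log2(FPKM + 0.1) the split was 1 higher and 4 lower of 16 tested, beside 19.4% and 19.3% of all genes called. Over all genes these 2 fits called 913 higher and 1057 lower, and 908 higher and 1053 lower. Without a filter limma called 1 higher and 3 lower of 20, beside 7.04% of all genes, 582 of them higher and 509 lower. Scd2, a stearoyl-CoA desaturase, rose from 406 and 419 CPM to 707 and 710 CPM (0.78, SE 0.050, adjusted p by edgeR = 3.17e-17), and Scd1, its low relative, from 3.31 and 3.86 CPM to 5.62 and 4.98 CPM (0.56, SE 0.15, adjusted p = 0.00521). Srebf1, the transcription factor through which LXRs drive lipogenesis, was at 87.2 and 88.4 CPM in WT and at 95.1 and 104.9 CPM in anti-Act1 (0.19, SE 0.056, adjusted p = 0.0119). Lpcat3, which places polyunsaturated fatty acids in phospholipids, was the fourth (0.18, SE 0.065, adjusted p = 0.0403). Of 13 alternatives, the Lpcat3 call was lost in 9, that of Scd1 in 5 and that of Srebf1 in 4, among them all 3 limma fits for each, while that of Scd2 was lost in 0. Lpl, the lipase that releases fatty acids from lipoproteins, had the largest fall of the list, from 532 and 592 CPM to 268 and 265 CPM (−1.08, SE 0.053, adjusted p = 1.87e-21). Mertk, a receptor for dead cells, fell from 170 and 177 CPM to 131 and 133 CPM (−0.40, SE 0.052, adjusted p = 4.09e-08), and the desaturase Fads1 from 42.4 and 43.9 CPM to 33.8 and 35.8 CPM (−0.31, SE 0.065, adjusted p = 0.000229).

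Of the 9 listed enzymes that make or consume LXR ligands, only 4 were tested and 2 were called, both lower, beside 20.7% of all genes called and 9.76% called lower. Cyp27a1, which makes 27-hydroxycholesterol, fell from 52.9 and 53.3 CPM to 39.5 and 39.6 CPM (log2 fold change −0.43, SE 0.062, adjusted p by edgeR = 4.28e-07). Ch25h, the enzyme of 25-hydroxycholesterol, was near the limit of detection, with 2 and 7 counts in WT and 11 and 2 counts in anti-Act1, and was not tested.

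**Figure D4:**
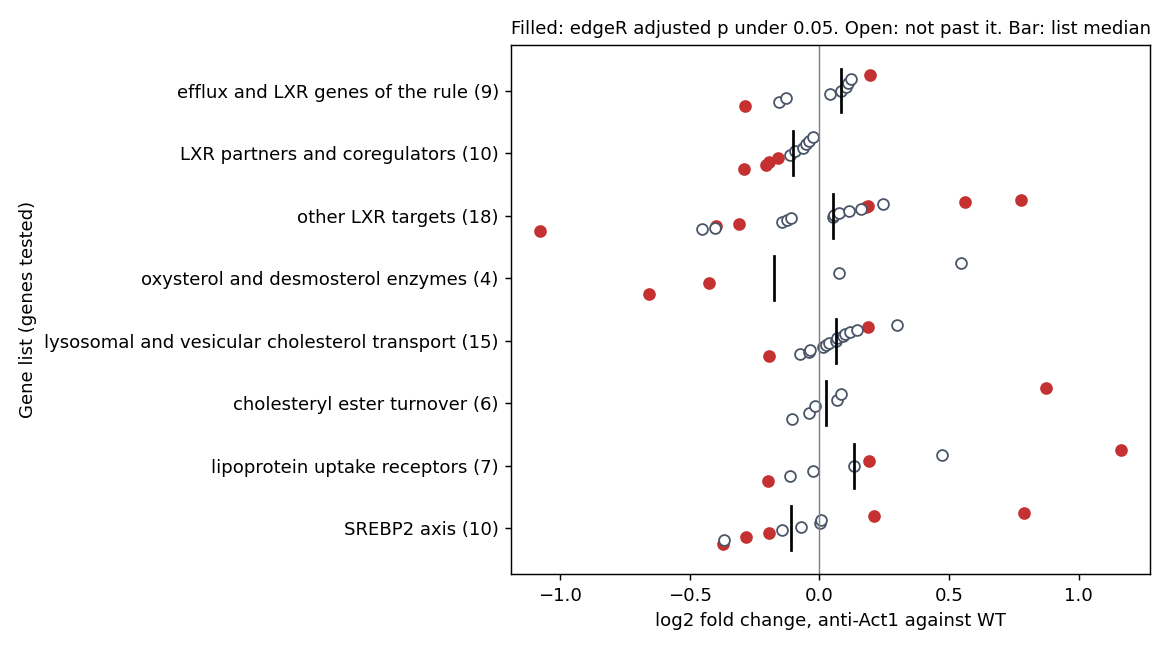
Log2 fold change (anti-Act1 against WT) of every tested gene of the 9 members and of the 7 pathway lists, 1 point per gene, filled where the gene was called, with a vertical bar at each list's median. The LXR partners all lie below 0, whereas the other LXR targets reach from −1.08 for Lpl to 0.78 for Scd2.

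Of the supply side, all 15 genes listed for lysosomal and vesicular cholesterol transport were tested, with 1 higher and 1 lower (13.3% called, beside 20.7% of all genes) and a median log2 fold change of 0.065. Lipa, the lysosomal acid lipase that frees cholesterol from its esters, was at 700 and 760 CPM in WT and at 636 and 640 CPM in anti-Act1 (−0.19, SE 0.051, adjusted p by edgeR = 0.00375), but did not pass without WT replicate 2 (−0.13, adjusted p = 0.0961). Scarb2, a lysosomal membrane protein, was at 404 and 400 CPM in WT and at 460 and 455 CPM in anti-Act1 (0.19, SE 0.050, adjusted p = 0.00423), but did not pass without anti-Act1 replicate 1 (0.18, adjusted p = 0.0607). Limma without a filter called neither. Of the lipoprotein uptake receptors, 7 of 8 were tested, with 2 called higher, among them Vldlr, and 1 called lower, the scavenger receptor Msr1 (−0.20, SE 0.051, adjusted p = 0.00251), whose call was lost without anti-Act1 replicate 2 (−0.17, adjusted p = 0.110) and by limma without a filter. These 3 of 7 are 42.9%, beside 20.7% of all genes called. The median of these receptors was 0.13, and without composition normalization 1 was called higher and 2 lower, beside 20.1% of all genes called.

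The SREBP2 axis, which raises cholesterol synthesis when sterols run low and so opposes the LXR route, was mixed. Srebf2 itself was at 96.4 and 97.1 CPM in WT and 96.6 and 97.2 CPM in anti-Act1 (log2 fold change 0.0022, SE 0.054, 95% confidence interval −0.11 to 0.11, adjusted p by edgeR = 0.986). Of the 10 genes, 2 were called higher and 3 lower, beside 10.9% and 9.76% of all genes, with a median of −0.11. Without composition normalization 2 were higher and 5 lower, beside 20.1% of all genes called. Sqle, squalene epoxidase, rose from 29.5 and 29.1 CPM to 50.5 and 50.7 CPM (0.79, SE 0.064, adjusted p = 6.04e-14). Insig2, which holds SREBP proteins in the endoplasmic reticulum, was also called higher (0.21, SE 0.060, adjusted p = 0.00901), a call lost without WT replicate 2 (0.19, adjusted p = 0.0551), without anti-Act1 replicate 1 (0.21, adjusted p = 0.0771), without anti-Act1 replicate 2 (0.21, adjusted p = 0.0827) and by limma without a filter. Its relative Insig1 (−0.28, SE 0.064, adjusted p = 0.000616) and Cyp51, lanosterol demethylase (−0.37, SE 0.081, adjusted p = 0.000437), were among the genes called lower, Cyp51 not by limma without a filter. The synthesis genes thus did not share 1 direction.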

How the data were processed

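RNA was sequenced from 4 libraries of cocultured macrophages, 2 labelled WT and 2 labelled anti-Act1. The authors deposited whole-number read counts per gene, not normalized, and FPKM. The study's text names TopHat, and the submitters' processing notes list Bowtie 0.12.2 and HTSeq 0.6.1 with the builds mm8 and mm10, without a role. Counts were tested with edgeR 4.0.16 (R 4.3.3): TMM, filterByExpr, condition only, two-sided quasi-likelihood F test, Benjamini-Hochberg adjustment. Alternatives were other scalings and filters, DESeq2 1.42.0, limma 3.58.1 on log2 of the FPKM plus a pseudocount of 1 or 0.1 (at least 1 FPKM in 2 libraries, or no filter), the replicate block and leaving out each library. A library had 55435063 to 75062945 counts, and 27 gene names turned into dates by a spreadsheet stayed as given. The members and the 7 lists (82 genes) were chosen with earlier results of these data known. From each list at most 6 called genes with a mean of at least 1 CPM were named, by size of fold change, besides Rxra, Srebf1, Srebf2, Lipa, Nceh1, Ch25h and Cyp27a1, though some genes that meet this are not reported here. Rxrb, Rxrg, Lrp8, Fasn and Tmco4 were added after their values were seen. Overlapping genes came from GENCODE M21. Programs were tested on simulated data.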

Additional observations from a re-analysis of the deposited data

How the results depend on the processing

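The count of genes called, 2586, was 1671 to 2543 with 1 library left out and 1091 by limma on log2(FPKM + 1) without a filter. Of the members, 2 were called, 1 to 4 with 1 library left out and 0 in the 3 limma fits. Their median log2 fold change, 0.082, ran from 0.043 to 0.12 with 1 library left out. Apoe was −0.31 in each limma fit, with adjusted p of 0.0685, 0.0738 and 0.642 (without a filter), and was called in every other alternative run. Mylip was 0.16, 0.17 and 0.16 in the limma fits, without a call, and 0.16 to 0.23 with 1 library left out. With 1 library left out, the log2 fold change was 0.043 to 0.16 for Abca1, −0.23 to −0.082 for Nr1h3, −0.20 to −0.056 for Npc1 and −0.021 to 0.10 for Soat1, whose sign turned without WT replicate 1 (−0.021). For Nr1h2 the log2 fold change was 0.028 to 0.14 in the same fits. Npc1 passed without composition normalization (−0.15, adjusted p = 0.0426). Npc2 passed by DESeq2 (0.12, adjusted p = 0.0128) and without a filter on counts (0.12, adjusted p = 0.0370). Of the LXR partners, 4 were called, 2 by DESeq2 and 2 by limma without a filter. Of the other LXR targets, 7 were called and 4 by limma without a filter. Of the oxysterol and desmosterol enzymes, 2 were called, 1 by DESeq2 and 1 in each limma fit. Lysosomal genes called were 2, and 0 by limma without a filter. Ester turnover genes called were 1, and 1 by limma without a filter. Uptake receptors called were 3, and 1 by limma without a filter. SREBP2 axis genes called were 5, and 2 by limma without a filter. Over all genes tested, the share called was 20.7% in the main fit and 20.1% without composition normalization. By DESeq2 this share was 12.8% of the 15495 genes with a count, where a gene without an adjusted p counted as not called. By limma this share was 19.4% and 19.3% with a filter and 7.04% without. The cause was not tested for any of the changes above. With the replicate block, 2406 genes and 2 members were called, and the calls of the members were the same; the same-numbered libraries did not deviate together (correlation −0.0297), so they share only a number.

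The main limits are 2 libraries per group, a knockdown label that Traf3ip2 did not show in these counts, and Y-linked genes that separate the groups. The smallest log2 fold change called among the members was 0.20, and Npc2 (0.12), Npc1 (−0.13) and Nr1h3 (−0.16) did not pass. The member with the fewest counts, Nr1h3 (at least 1618 in every library), had the largest standard error (0.071, against 0.048 for Apoe).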
